A study of Mus musculus with 4 samples.

Results

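The cells described here were CD4+ T cells from mouse spleen, taken 4 days after an intraperitoneal injection of sheep red blood cells. A pool from mice in which Il2rb is deleted in B cells (KO) was compared with a pool from Cre control mice (control). A cell entered when its barcode in the T cell library had at least 200 genes, under 10% mitochondrial transcripts, a top hashtag of at least 10 unique molecular identifiers (UMIs, 1 per captured transcript) and at least 3 times the next hashtag, at least 1 UMI of Cd3e and none of Cd79a. There were 5635 such cells, 3658 in the KO pool and 1977 in the control pool, of 15646 barcodes in the B cell and T cell libraries together. Both pools came from C57BL/6NRj mice. The genotype label gives the same text, a Cre allele with Il2rbfl/fl, for Ctrl and for KO alike, so the pools were told apart by the hashtag text, which names them KO and Cre, and the allele that separates them cannot be read from the genotype label. Unimmunized KO and control mice (day 0) gave 1166 and 912 T cells by the same rule. The B cell library gave 1950 KO and 1487 control B cells at day 4 (at least 1 Cd79a UMI, no Cd3e UMI). The sources used here do not say how many mice a pool held, nor their sex or age, and the isolation kit is named for naive CD4+ T cells. Each side was 1 pool, so no difference below has a test or a replicate check.

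Il2rb encodes the beta chain of the receptors for interleukin-2 and interleukin-15. It pairs with the common gamma chain, Il2rg, to signal through JAK1, JAK3 and STAT5, and Il2ra raises the affinity of the complex for interleukin-2. The Cre recombinase of these mice is made in the B lineage, so that floxed genes are cut there. Sheep red blood cells are a particulate antigen that calls on CD4+ T cell help, and some responding T cells become follicular helper cells, which carry CXCR5 and PD-1 and enter B cell follicles. T cells in these mice were therefore not the cells in which Il2rb was targeted, but they met B cells in which it was.

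The assignment of every cell to a pool rested on 4 short DNA barcodes carried by hashtag antibodies, shown here because they alone divide KO from control within the library. All of each barcode, in capitals, was matched, 5′ to 3′.
KO day 4, hashtag 1: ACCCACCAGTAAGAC
control day 4, hashtag 2: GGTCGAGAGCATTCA
KO day 0, hashtag 3: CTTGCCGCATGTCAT
control day 0, hashtag 4: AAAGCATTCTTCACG
At day 4 the median cell held 2261 UMIs of its own hashtag against 94 of the next in the KO pool, and 3763 against 110 in the control pool. The rule itself required a gap of 3 times, so these values describe the kept cells and do not check their assignment.

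Summed over cells, the day 4 pools held 22552658 KO and 13298182 control UMIs, with medians of 5339 and 5715 UMIs per cell and 3.06% and 2.93% mitochondrial UMIs. Between the T cell and B cell libraries 84 barcodes were shared. Levels below are summed UMIs per 1000000 UMIs of the pool (CPM), and a ratio is KO CPM over control CPM with a 95% conditional binomial interval in parentheses, which covers counting error only. In such sums, fewer cells of a type and less RNA per cell cannot be told apart. The 8 CD4 T cell markers were present in both pools at ratios from 0.932 (Cd4) to 1.06, and of the 2 CD8 T cell markers Cd8a had 4 and 3 UMIs and Cd8b1 247 and 151, summing to 11.1 and 11.6 CPM. B cell markers summed to 238 CPM in KO and 289 CPM in control, nearly all of it Ighm (217 and 252 CPM), and Ms4a1, the gene for CD20, had 0 UMIs in both. Natural killer and innate-like markers summed to 90.2 and 89.7 CPM, gamma-delta T cell markers to 14.6 and 13.3 CPM, and myeloid markers to 107 and 136 CPM. Erythroid markers summed to 126 CPM in KO and 641 CPM in control. Xist, which is transcribed in female cells, was at 629 and 633 CPM, and the 4 Y-linked genes followed had 6 UMIs in KO and none in control.

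Il2rb itself was present in both pools of T cells. It stood at 104 CPM (Poisson interval 99.7 to 108) in KO and 115 CPM (110 to 121) in control, a ratio of 0.901 (0.845 to 0.962). The day 0 pools had 79.0 and 86.0 CPM, a ratio of 0.919 (0.80 to 1.06). Il2rg, the shared signalling chain, had a ratio of 1.02 (0.982 to 1.05). Il2ra was at 45.5 CPM in KO and 51.6 CPM in control, a ratio of 0.882 (0.80 to 0.973) that became 1.01 without the 1% of cells with the most UMIs. A single control cell held 90 of the 686 control Il2ra UMIs. In the B cells of day 4, where the gene was targeted, Il2rb had only 4 UMIs in KO and 11 in control, a ratio of 0.297 (0.0690 to 1.0), and none in either pool at day 0, so B cell depth gives little check of the deletion.

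Within T cells Il2rb was highest in cells with at least 1 Foxp3 UMI, the gene for the master regulator of regulatory T cells, at 275 CPM in KO and 290 CPM in control. Cells with Cxcr5 and Pdcd1 transcripts and no Foxp3 had 132 and 116 CPM. All other cells were divided by Cd44, an adhesion receptor that activated and memory T cells carry at high level, a division chosen after seeing the data. Those with a Cd44 UMI (Cd44+) had 186 and 204 CPM, and those without (Cd44-) 50.3 and 51.6 CPM. KO over control ratios were 0.949 (0.846 to 1.07) in Foxp3+, 1.14 (0.859 to 1.52) in Cxcr5+ Pdcd1+, 0.916 (0.817 to 1.03) in Cd44+ and 0.974 (0.864 to 1.10) in Cd44- cells. The order of levels was the same in both pools, and every one of the 4 intervals included 1.

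Among the 15 measured genes of the IL-2 and IL-15 receptor and STAT5 list, 10 were higher and 5 lower in KO, with a median log2 ratio of 0.08 against 0.01 over all genes tested. Bcl2, the survival factor, had a ratio of 1.14 (1.09 to 1.20) and Cish, a STAT5-induced inhibitor, 1.13 (0.976 to 1.31). Prdm1, which encodes the repressor Blimp-1, was the 1 member past 1.3-fold, at 7.89 CPM in KO and 10.8 CPM in control (0.729, 0.582 to 0.914), though at 0.808 with every cell given the same weight and 0.770 with no gate on Cd3e or Cd79a. The list moved little as a whole.

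Of 9957 genes with at least 100 UMIs over both pools, 5302 were higher in KO and 4655 lower, with a median absolute log2 ratio of 0.09. At least 1.5-fold higher in KO were 68 genes (0.683%) and at least 1.5-fold lower 108 genes (1.08%). At the smaller fold of 1.3, 214 genes (2.15%) were higher and 335 (3.36%) lower. With KO cells weighted to the gate mix of the control pool (the 4 gates above), 230 were 1.3-fold higher and 245 lower, and 69 and 76 at 1.5-fold, so the excess on the lower side was smaller. In the day 0 pools, which held fewer cells, 288 of 7517 genes (3.83%) were at least 1.3-fold higher and 294 (3.91%) lower, and 0.998% and 0.772% passed 1.5-fold. The 2 pools were thus close over most genes at day 4, and as counted the lower side was the fuller one.

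**Figure D1:**
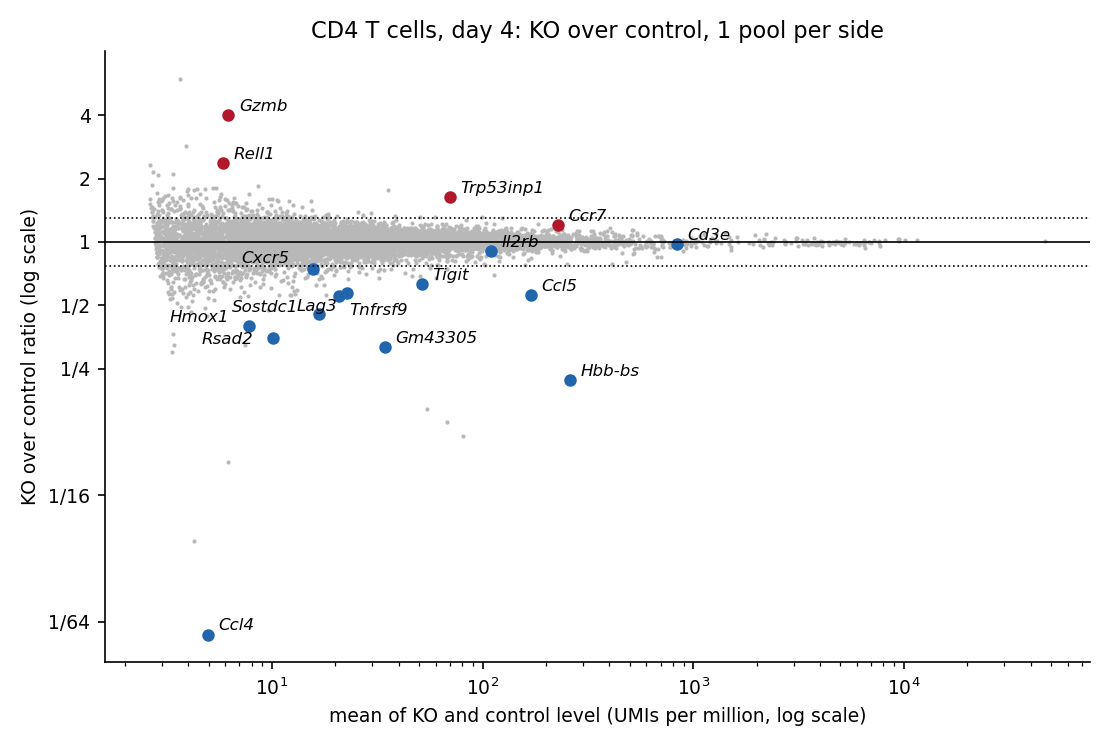
Each point is 1 of 9957 genes; the horizontal axis gives the mean of the KO and control levels and the vertical axis the KO over control ratio, both on log scales, with dotted lines at 1.3-fold. Most genes lie between the dotted lines; Ccl4 at 0.0136 (0.203 with no gate on Cd3e or Cd79a) lies far below, and Gzmb at 4.00 far above.

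Genes of follicular helper T cells were mostly lower in KO. Of 17 measured members 15 were lower, 5 of them at least 1.3-fold, and 2 higher, with a median log2 ratio of -0.25 against 0.01 over all genes. Of all genes tested, 3.36% were at least 1.3-fold lower. Cxcr5, the receptor that guides T cells into follicles, was at 13.3 CPM in KO and 17.9 CPM in control (0.741, 0.623 to 0.882), but with the gate mix of the control pool its ratio was 0.921. Sostdc1, a secreted antagonist of BMP and Wnt signals found in follicular helper cells, was at 10.5 and 23 CPM (0.457, 0.384 to 0.543). Its UMIs lay in 34 KO and 28 control cells, and single cells held 17.7% and 10.5% of them. Angptl2, an angiopoietin-like secreted protein, was at 8.74 and 15.6 CPM (0.558, 0.457 to 0.682). The transcription factors Tox2 and Maf had ratios of 0.763 (0.657 to 0.887) and 0.775 (0.734 to 0.817), and Pdcd1, which encodes PD-1, 0.802 (0.704 to 0.914). Bcl6, the repressor that defines the follicular helper program, did not share this direction, at 22.6 and 21.1 CPM (1.07, 0.921 to 1.24). Nor did Il4, a cytokine that instructs B cells, at 21.1 and 17.8 CPM (1.18, 1.01 to 1.39), while Il21 stood at 9.89 and 10.8 CPM (0.913, 0.737 to 1.13). At day 0, 7 of 9 measured members were higher in KO and the median was 0.09.

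Cells with transcripts of both Cxcr5 and Pdcd1 and none of Foxp3 made up 70 of 3658 KO cells (1.91%, 1.49 to 2.41) and 56 of 1977 control cells (2.83%, 2.15 to 3.66), a ratio of 0.676 (0.477 to 0.956). These cells were deep, with medians of 11962 and 12902 UMIs. After thinning to 1500 UMIs only 8 KO and 5 control cells met the rule, a ratio of 0.864 (0.283 to 2.64), so at equal depth the gate was too small to show a difference. In the day 0 pools 5 KO cells and 1 control cell met it. B cells, which should lack Pdcd1, had a Pdcd1 UMI in 0.103% of KO and 0.0672% of control cells at day 4, against 7.0% and 8.95% of the T cells, at median depths of 5851 and 6076 UMIs.

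Within the Cxcr5+ Pdcd1+ gate the follicular helper list, without the genes that define the gates, was not lower: 8 of 14 members were higher in KO and the median log2 ratio was 0.10. Sostdc1, followed there after its pool values were seen, remained at 117 against 276 CPM (0.424, 0.333 to 0.538), with 21.3% and 15.5% of its UMIs from 1 cell. Among 2501 genes tested in the gate, 79 (3.16%) were at least 1.5-fold higher in KO and 22 (0.88%) lower, and 8.88% and 4.4% passed 1.3-fold. The 5 highest were Bst2, the interferon-induced tetherin (2.17, 1.46 to 3.28), Trp53inp1 (2.14, 1.54 to 3.01), Cd5, an inhibitory receptor whose level follows T cell receptor signal strength (1.82, 1.45 to 2.29), Aggf1 (1.80, 1.17 to 2.83) and Elf4 (1.72, 1.12 to 2.69). The 5 lowest were Angel2, P2rx7, Pbxip1, Os9 and 2410006H16Rik, at ratios from 0.589 to 0.640. P2rx7 encodes an ATP-gated channel that limits follicular helper cells, and was at 102 CPM in KO and 164 CPM in control (0.621, 0.470 to 0.820). With 70 and 56 cells, these are the least certain values given here.

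Naive and quiescence genes leaned the other way. All 18 measured members were higher in KO, with a median log2 ratio of 0.12, but the differences were small and only Ccr9 passed 1.3-fold. Ccr7, which directs T cells to the T cell zone, was at 248 CPM in KO and 206 CPM in control (1.21, 1.15 to 1.26). Klf2, the factor that keeps T cells recirculating, was at 551 and 483 CPM (1.14, 1.11 to 1.18). Tcf7, a factor of naive and memory-like cells, was the most abundant member at 631 and 626 CPM (1.01, 0.981 to 1.04). Ccr9, a gut-homing receptor, was at 6.74 and 4.59 CPM (1.47, 1.08 to 2.01), and single cells held 17.8% and 24.6% of its UMIs. Only 3 of 17 members were higher in KO at day 0, where the median was -0.09.

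Among cells outside the Foxp3+ and Cxcr5+ Pdcd1+ gates, Cd44+ cells were 12.1% (11.1 to 13.2) of KO and 15.8% (14.2 to 17.5) of control T cells, a ratio of 0.767 (0.671 to 0.878). Cd44- cells were 75.2% (73.8 to 76.6) and 70.8% (68.7 to 72.8), a ratio of 1.06 (1.03 to 1.10). After thinning the Cd44+ ratio was 0.822 (0.647 to 1.05) and the Cd44- ratio 1.02 (0.997 to 1.04). At day 0 the ratios as counted were 0.966 (0.751 to 1.24) and 0.983 (0.945 to 1.02). Foxp3+ cells made up 10.8% (9.78 to 11.8) of KO and 10.6% (9.30 to 12.1) of control cells, a ratio of 1.01 (0.866 to 1.19). B cells at day 4 had a Foxp3 UMI in 0.205% and 0.202% of cells. As counted, the day 4 control pool thus held the larger share of Cd44+ cells beyond counting error, which the thinned interval did not show, while the Foxp3+ share was near equal.

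**Figure D2:**
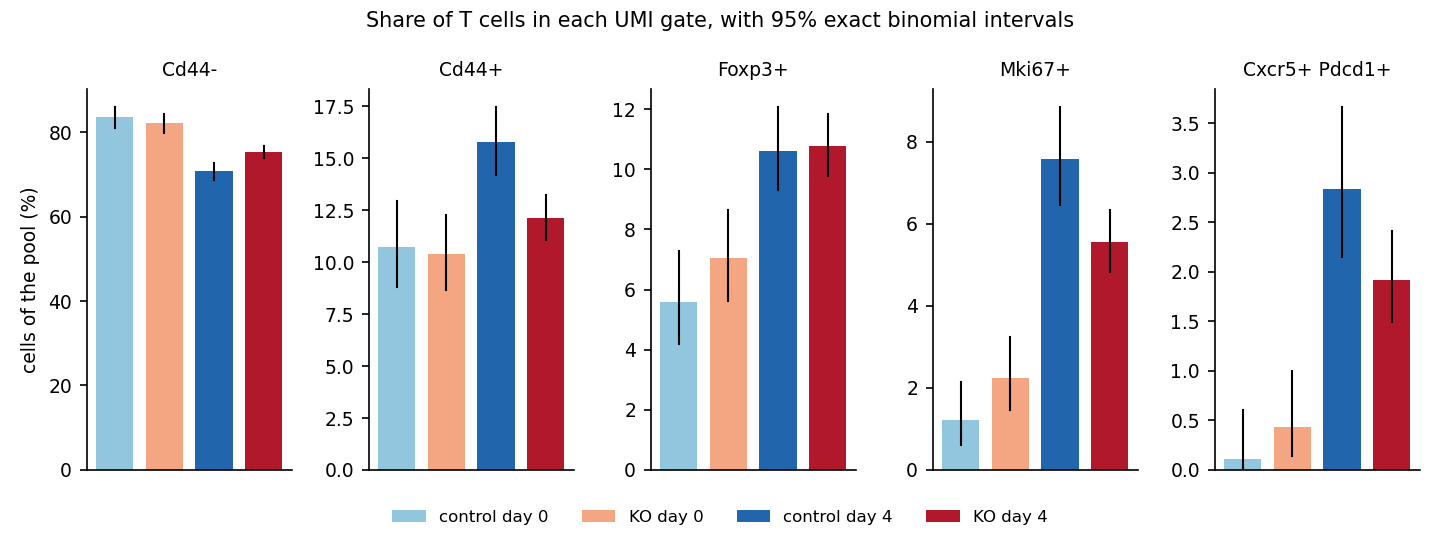
Bars give the percentage of T cells of each pool in 5 UMI gates, with 95% exact binomial intervals as black lines; each panel has its own axis from 0. At day 4 KO is below control for Mki67+ (5.55% and 7.59%), Cd44+ (12.1% and 15.8%) and Cxcr5+ Pdcd1+ cells (1.91% and 2.83%), and above it for Cd44- cells.

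Effector and memory genes were lower in KO for 16 of 20 measured members, with a median log2 ratio of -0.15. Of the 16 lower, 2 were past 1.3-fold, against 3.36% of all genes tested. Ccl5, a chemokine of activated and memory T cells, was at 122 CPM in KO and 218 CPM in control (0.560, 0.532 to 0.590). Its UMIs lay in 163 KO and 126 control cells. The ratio was 0.455 with every cell given the same weight, 0.599 with the gate mix of the control pool and 0.660 with no gate on Cd3e or Cd79a. The day 0 pools had the same direction for Ccl5, with a ratio of 0.572, but not for the list. At day 0, 12 of its 18 measured members were higher in KO, and the median was 0.06. Lgals3, which encodes galectin-3, was at 17.1 and 28.8 CPM (0.594, 0.515 to 0.686), but 18.8% of its control UMIs lay in 1 cell and the ratio was 0.895 without the deepest 1% of cells. S100a6 and S100a11, calcium-binding proteins of activated T cells, had ratios of 0.80 (0.775 to 0.825) and 0.788 (0.762 to 0.815). Crip1, the most abundant member, did not differ beyond counting error at 922 and 918 CPM (1.0, 0.982 to 1.03). When KO cells were weighted to the gate mix of the control pool, the list median was -0.05, that of the follicular helper list -0.12 and that of the naive list 0.09.

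Ccl5 was at a ratio of 0.585 (0.543 to 0.631) in Cd44+ cells, 0.661 (0.610 to 0.717) in Cd44- cells and 0.404 (0.331 to 0.492) in Foxp3+ cells. The Foxp3+ and Cd44- values were followed after the pool values were seen. Of 6567 genes tested in Cd44+ cells, 102 (1.55%) were at least 1.5-fold higher in KO and 54 (0.822%) lower, and 5.7% and 3.59% passed 1.3-fold. Besides Ccl5, the lowest included Calcoco1 (0.520, 0.346 to 0.774), Mapk8, the stress kinase JNK1 (0.566, 0.381 to 0.835), and Iigp1, an interferon-induced GTPase (0.576, 0.441 to 0.752). The highest were Xrcc5, which encodes the Ku80 subunit of DNA end joining (1.82, 1.21 to 2.79), Ttf2, Primpol, Hsh2d and Zfp830, at ratios from 1.73 to 1.82. Effector and memory genes were higher for 11 of 19 members in Cd44+ cells, with a median of 0.02, and lower for 11 of 18 in Cd44- cells, with a median of -0.14.

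In Cd44- cells, the largest gate, 63 of 9020 genes (0.698%) were at least 1.5-fold higher in KO and 84 (0.931%) lower, and 3.03% and 2.78% passed 1.3-fold. After Gm43305, the lowest were Cpne8 (0.330, 0.237 to 0.457), Tigit (0.506, 0.406 to 0.630), Gm4316 (0.534, 0.410 to 0.696) and Rnf157 (0.543, 0.366 to 0.808). The highest were Rell1 (2.15, 1.35 to 3.56), Zfp606 (1.89, 1.26 to 2.89), Ly6k (1.88, 1.31 to 2.76), Padi2, a peptidyl arginine deiminase (1.84, 1.32 to 2.60), and Nckipsd (1.76, 1.12 to 2.84). Follicular helper genes were lower for 11 of 14 members in Cd44- cells and 9 of 12 in Cd44+ cells, with medians of -0.12 and -0.21.

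Costimulatory and inhibitory receptors held some of the clearest lower values. Of 20 measured, 14 were lower in KO and 6 higher, with a median of -0.15. At least 1.3-fold lower were 4, against 3.36% of all genes tested. Tnfrsf9, the costimulatory receptor 4-1BB, was at 14.9 CPM in KO and 26.8 CPM in control (0.555, 0.477 to 0.646). Lag3, an inhibitory receptor that binds MHC class II, was at 16.5 and 28.8 CPM (0.574, 0.497 to 0.664). Tigit, an inhibitory receptor for the poliovirus receptor family, was at 39.8 and 63.3 CPM (0.629, 0.572 to 0.692). The Tigit ratio was 0.708 with the gate mix of the control pool, 0.556 without the deepest 1% of cells and 0.549 with every cell given the same weight. Tnfrsf1b, the second receptor for tumour necrosis factor, was at 37.5 and 54.4 CPM (0.689, 0.623 to 0.762). At day 0 Tnfrsf9 was at a ratio of 0.940 (0.659 to 1.35), Lag3 at 1.10 (0.572 to 2.18), Tigit at 1.41 (0.901 to 2.23) and Tnfrsf1b at 1.11 (0.865 to 1.42), each with an interval that included 1. Cd28, the main costimulatory receptor of naive cells, had a ratio of 1.06 (1.01 to 1.10).

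Tnfrsf9, Lag3 and Tigit had ratios below 1 in each of the 4 gates. Tnfrsf9 was at 0.582 (0.473 to 0.717) in Foxp3+ cells, 0.581 (0.231 to 1.41) in Cxcr5+ Pdcd1+ cells, 0.399 (0.255 to 0.616) in Cd44+ cells and 0.614 (0.460 to 0.820) in Cd44- cells. Lag3 was at 0.390 (0.290 to 0.521) in Cd44+ cells, 0.729 (0.507 to 1.05) in Foxp3+ cells, 0.955 (0.613 to 1.49) in Cxcr5+ Pdcd1+ cells and 0.665 (0.532 to 0.832) in Cd44- cells. Tigit was at 0.506 (0.406 to 0.630) in Cd44-, 0.723 (0.582 to 0.898) in Cd44+, 0.729 (0.618 to 0.859) in Foxp3+ and 0.827 (0.686 to 0.998) in Cxcr5+ Pdcd1+ cells. In all, 13 of 18 members tested in Cd44+ cells were lower in KO, and 12 of 18 in Cd44- cells. Whether the gates differed from each other was not tested.

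Regulatory T cell genes were lower in KO for 12 of 15 measured members, with a median of -0.18. Past 1.3-fold lower were 2, against 3.36% of all genes tested. Foxp3 itself was at 46.2 CPM in KO and 46.8 CPM in control (0.985, 0.891 to 1.09), and Ctla4 at 72.7 and 79.9 CPM (0.911, 0.842 to 0.985). Izumo1r, the folate receptor FR4 of regulatory and anergic T cells, was at 220 and 281 CPM (0.784, 0.751 to 0.818). Klrg1, a receptor of terminally differentiated cells, was at 4.04 and 6.09 CPM (0.662, 0.486 to 0.905), with 16.5% and 19.8% of its UMIs from 1 cell. Within the Foxp3+ gate 93 of 5512 genes (1.69%) were at least 1.5-fold lower and 91 (1.65%) higher, and 6.73% and 5.46% passed 1.3-fold. The lowest were Cd74, the MHC class II invariant chain (0.516, 0.406 to 0.655), Wsb2 (0.522), Podnl1 (0.565), Tnfrsf1b (0.582, 0.495 to 0.683) and Tnfrsf9. The highest were Gm10130 (2.32, 1.51 to 3.68), Timm9 (2.0), Gm42031 (1.78), St8sia6 (1.74) and Bmi1 (1.69, 1.08 to 2.73). Cd74 is also a B cell marker, at 13.4 CPM in KO and 20.2 CPM in control over all T cells (0.664, 0.562 to 0.786), and at 0.914 with no gate on Cd3e or Cd79a. Its part in the Foxp3+ value was not tested.

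Among 8 helper cytokine genes measured, 7 were lower in KO and 1, Il4, higher, with a median of -0.12. Ifng, the type 1 helper cytokine, had 56 KO and 55 control UMIs, or 2.48 and 4.14 CPM (0.60, 0.406 to 0.887), and 1 control cell held 16.4% of them. Tnfsf11, which encodes RANKL, was at 14.9 and 20.8 CPM (0.72, 0.612 to 0.847), and at 0.818 with the gate mix of the control pool. Ltb, encoding lymphotoxin beta, was by far the most abundant at 580 and 599 CPM (0.967, 0.940 to 0.994). Il2, Il10, Il5, Il13, Il17a, Il17f, Il22 and Csf2 stayed under 100 UMIs and were not tested. Of 16 helper transcription factors 10 were lower and 6 higher, with Prdm1 and Tbx21, the T-bet gene, past 1.3-fold lower. Tbx21 was at 4.66 and 6.24 CPM (0.746, 0.554 to 1.01), so its interval reached 1, and its ratio was 0.811 with the gate mix of the control pool and 0.770 with a top hashtag at least 10 times the next.

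Proximal T cell receptor signalling genes stayed together, with 13 of 22 higher, none past 1.3-fold and ratios from 0.922 (Fyn) to 1.15 (Rasgrp1). In the list of genes induced by antigen receptor signals 12 of 17 were lower, and 1, Nr4a2, past 1.3-fold (3.68 against 6.92 CPM; 0.532, 0.391 to 0.724). A single control cell held 15.2% of the Nr4a2 UMIs. Its relative Nr4a1 had a ratio of 0.997 (0.867 to 1.15), Myc 1.21 (1.11 to 1.33) and Cd69 1.14 (1.07 to 1.22). Genes induced by glucocorticoids were higher in KO for 10 of 13, with Tsc22d3, the GILZ gene, at 115 and 93.3 CPM (1.23, 1.15 to 1.32), and none passed 1.3-fold. All 13 mitochondrially encoded genes were slightly higher in KO, with a median of 0.06, beside the median mitochondrial shares of 3.06% and 2.93%.

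Homing and adhesion receptors were mixed, with 13 of 22 higher. Ccr4, a chemokine receptor of type 2 helper and regulatory cells, was at 13.6 CPM in KO and 19.1 CPM in control (0.710, 0.60 to 0.842), and at 0.770 with the gate mix of the control pool. In the BCL2 family, 5 of 11 were higher, and only Bcl2a1d, an activation-induced survival gene with near-identical copies, passed 1.3-fold lower (0.75, 0.658 to 0.856), which became 0.859 with the gate mix of the control pool. Of 86 oxidative phosphorylation genes 58 were lower, with a median of -0.02 and 1, Ndufaf6, past 1.3-fold (0.741), though not with every cell given the same weight (0.793) or with no gate on Cd3e or Cd79a (0.771). Ribosomal proteins of the cytosol were lower for 59 of 83, with a median of -0.01. Of 21 genes that MYC induces, mostly for building ribosomes, 16 were higher, with a median of 0.09 and none past 1.3-fold. Class I antigen presentation genes, GTPases induced by interferon gamma, immediate early genes and GIMAP genes had medians between -0.01 and 0.04, also with none past 1.3-fold.

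**Figure D3:**
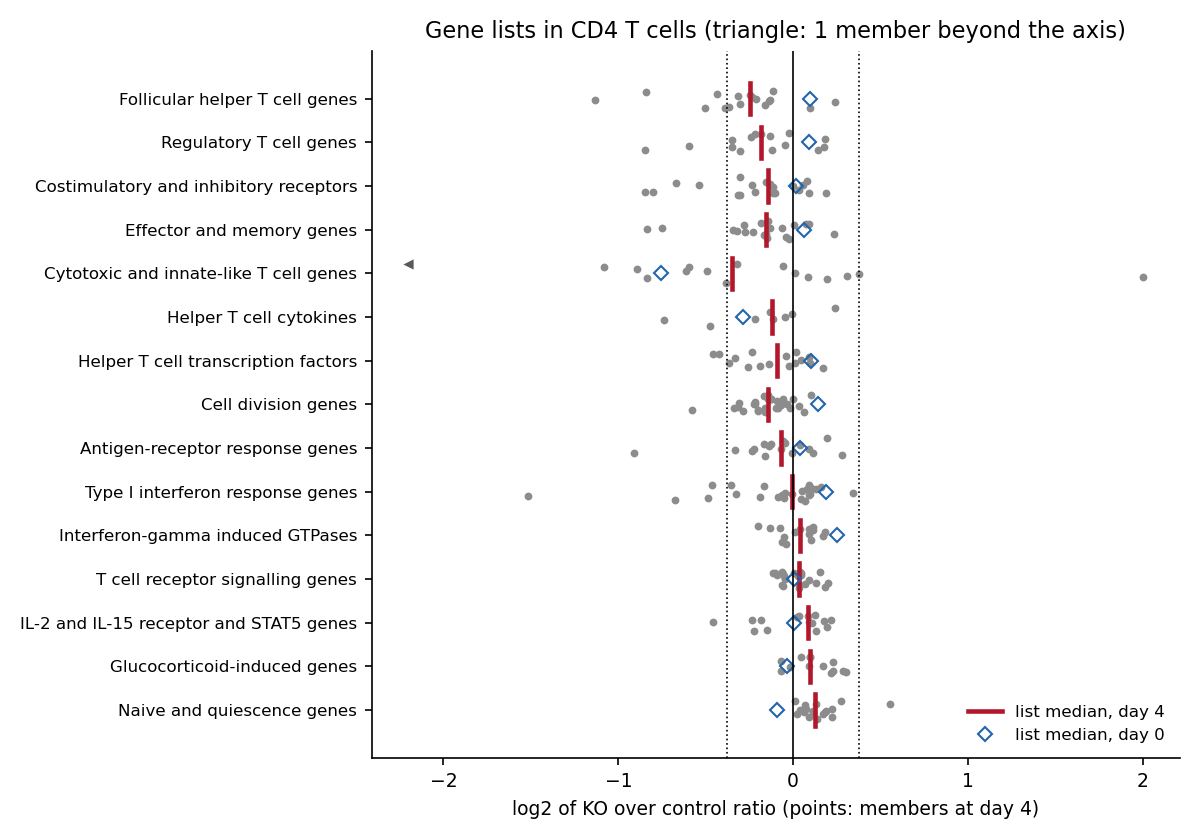
Each grey point is the log2 KO over control ratio of 1 tested member of a gene list at day 4; the red bar is the list's median at day 4, the open blue diamond its median at day 0, and dotted lines mark 1.3-fold. The triangle at the left edge stands for Ccl4 at -6.20. The follicular helper median is at -0.25 and the naive median at 0.12, each on the other side of 0 from its day 0 diamond.

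Cell division genes were lower in KO for 24 of 28 members, with a median of -0.14, and 1 passed 1.3-fold. Rrm2, a subunit of ribonucleotide reductase, was at 26.0 CPM in KO and 38.7 CPM in control (0.671, 0.595 to 0.757), but at 0.819 without the deepest 1% of cells and 0.769 with the gate mix of the control pool. Mki67, the Ki-67 antigen of cycling cells, was at 81.9 and 102 CPM (0.805, 0.75 to 0.864), whereas Top2a, a topoisomerase of dividing cells, was at 80.0 and 76.8 CPM (1.04, 0.965 to 1.13). Cells with a Mki67 UMI were 203 of 3658 in KO (5.55%, 4.83 to 6.34) and 150 of 1977 in control (7.59%, 6.46 to 8.84), a ratio of 0.731 (0.597 to 0.897). After thinning the ratio was 0.728 (0.528 to 1.004), an interval that just included 1. Without the deepest 1% of cells the list median was -0.02. At day 0, 15 of 16 members were higher in KO, and Mki67+ cells were 2.23% of KO and 1.21% of control cells.

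The division list split by gate. It was lower in KO in Foxp3+ cells (25 of 28 members; median -0.30) and Cd44- cells (17 of 22; -0.44), and higher in Cxcr5+ Pdcd1+ cells (17 of 20; 0.33) and Cd44+ cells (20 of 28; 0.21). Few cells stood behind these sums: Mki67+ cells numbered 62 KO and 50 control in the Cd44- gate, 65 and 51 in the Cd44+ gate, and 21 and 13 in the Cxcr5+ Pdcd1+ gate. One control cell held 25.7% of the Mki67 UMIs of the Cd44- gate. In Cxcr5+ Pdcd1+ cells Mki67 itself was at 0.862 (0.701 to 1.06), with 20.5% of KO and 37.0% of control UMIs in 1 cell. Top2a was at 1.38 (1.10 to 1.73) there, with 25.7% and 27.4% in 1 cell. In Cd44+ cells the share with a Mki67 UMI was 14.7% (11.5 to 18.3) in KO and 16.3% (12.4 to 20.9) in control, opposite in direction to the UMI sum of Mki67 (1.38, 1.22 to 1.57).

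Cytotoxic and innate-like genes had the lowest median of the T cell lists, -0.35, with 8 of 16 measured members at least 1.3-fold lower and 1 higher. Over all genes tested, 3.36% were that far lower and 2.15% higher. The list median was -0.20 with the gate mix of the control pool and -0.60 with every cell given the same weight. The list was already lower at day 0, where 0 of 6 measured members were higher in KO and the median was -0.76. Xcl1, a chemokine for cross-presenting dendritic cells, was at 8.96 CPM in KO and 13.5 CPM in control (0.662, 0.539 to 0.814), with 23.3% of the control UMIs in 1 cell, and Fasl, the death ligand, at 4.92 and 6.92 CPM (0.711, 0.535 to 0.948). Gzmb, the serine protease granzyme B, went the other way, at 9.93 and 2.48 CPM (4.00, 2.77 to 5.96). The share of cells with a Gzmb UMI was nearly equal, 33 of 3658 KO (0.902%) and 18 of 1977 control cells (0.910%), and 1 KO cell held 55 of the 224 UMIs. With every cell given the same weight the Gzmb ratio was 1.99. Most of it, 183 KO and 22 control UMIs, lay in 20 and 11 Foxp3+ cells (4.87, 3.12 to 7.96). Ccl4, an inflammatory chemokine, had 3 KO and 130 control UMIs (0.0136, 0.00277 to 0.0407), of which 1 control cell held 80, and its ratio was 0.203 with no gate on Cd3e or Cd79a.

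Over the whole comparison, 37 genes past 1.5-fold had over 10% of a pool's UMIs in 1 cell. The hemoglobin genes were the plainest case. Hbb-bs had 2121 UMIs in KO and 5675 in control (0.22, 0.210 to 0.232), with 95.8% and 82.4% of them in 1 cell of each pool. Hbb-bt and Hba-a1 were at 0.120 and 0.140, with 84.4% and 74.5% of their control UMIs in 1 cell. Only 3 KO and 6 control cells held 10 or more hemoglobin UMIs, and without them Hbb-bt had a ratio of 1.12 and Hbb-bs 0.912. Hba-a1 and Hba-a2 stayed lower in KO without these cells, at 0.546 and 0.392. This exclusion was chosen after seeing the data. With no gate on Cd3e or Cd79a the ratios of Hbb-bs, Hbb-bt and Hba-a1 were 0.778, 0.692 and 0.540. Ccl6, a myeloid chemokine (0.0904, 0.0556 to 0.141), had 22 of 23 KO UMIs and 94 of 150 control UMIs in 1 cell, and a ratio of 0.334 with no gate on Cd3e or Cd79a. Lyz2, the macrophage lysozyme, was at 14.5 and 25.6 CPM (0.569), with 94.2% and 95.6% in 1 cell.

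A ranking took the 9577 genes with UMIs in 2% or more of either pool's cells and no cell holding over 10% of them, receptor variable genes aside. Of these 46 (0.48%) were at least 1.5-fold higher in KO and 68 (0.71%) lower, and at 1.3-fold 1.74% were higher and 2.8% lower. The lowest was Gm43305, an uncharacterised processed transcript at chr14:54292443-54297456 (minus strand, mm10). It was at 16.5 CPM in KO and 52.1 CPM in control (0.316, 0.278 to 0.359), with UMIs in 6.04% and 17.9% of cells. Its ratio was 0.298 (0.179 to 0.480) in day 0 T cells and 0.405 (0.382 to 0.429) in day 4 B cells. In each of the 4 gates it was lower in KO, from 0.272 (0.203 to 0.362) in Foxp3+ to 0.529 (0.344 to 0.804) in Cxcr5+ Pdcd1+ cells. Cpne8, a calcium-dependent membrane-binding copine (0.322, 0.243 to 0.425), Rsad2, which encodes the antiviral enzyme viperin (0.35, 0.276 to 0.441), and Hmox1, the heme-degrading heme oxygenase 1 (0.398, 0.306 to 0.517), came next. Then followed Baiap3 (0.446), Gm47939 (0.487), Sh3gl3 (0.490), the receptor tyrosine kinase gene Axl (0.491), Apobec2 (0.514), Csf1, the macrophage growth factor (0.525, 0.370 to 0.744), Nnt, the mitochondrial transhydrogenase (0.538), and C030034L19Rik (0.542). All but Gm43305 were at 15.0 CPM or less in both pools. At day 0 Rsad2 (1.40), Hmox1 (1.44), Sh3gl3 (1.20), Apobec2 (1.87) and C030034L19Rik (5.25, from 7 and 1 UMIs) were above 1, with intervals that included 1. Cpne8 (0.583), Baiap3 (0.984), Axl (0.862) and Nnt (0.954) were below 1 there, also with intervals that included 1. Gm47939 (0.375, 0.148 to 0.879) and Csf1 (0.321, 0.101 to 0.890) were below 1 with intervals clear of it.

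The highest gene by the same rule was Rell1, a relative of the tumour necrosis factor receptor RELT, at 8.20 CPM in KO and 3.46 CPM in control (2.37, 1.71 to 3.35). Its ratio was 1.87 (1.06 to 3.44) in day 0 T cells and 1.75 (1.21 to 2.56) in day 4 B cells. Next were Tmem216, a protein of the ciliary transition zone (2.15, 1.34 to 3.58), Proser3 (2.09, 1.38 to 3.28), Utp14b (1.86) and Zfat (1.81). Gm43647, annotated antisense in the T cell receptor alpha region, was at 1.78 (1.25 to 2.59) and at 0.477 (0.286 to 0.784) at day 0. Nckipsd (1.77), Rragd, a Rag GTPase of amino acid sensing (1.75), Lrrc29 (1.71), the tetraspanin gene Tspan9 (1.69), Xkrx (1.67) and Rasl11b (1.65) completed the 12, each under 10 CPM in both pools.

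**Figure D4:**
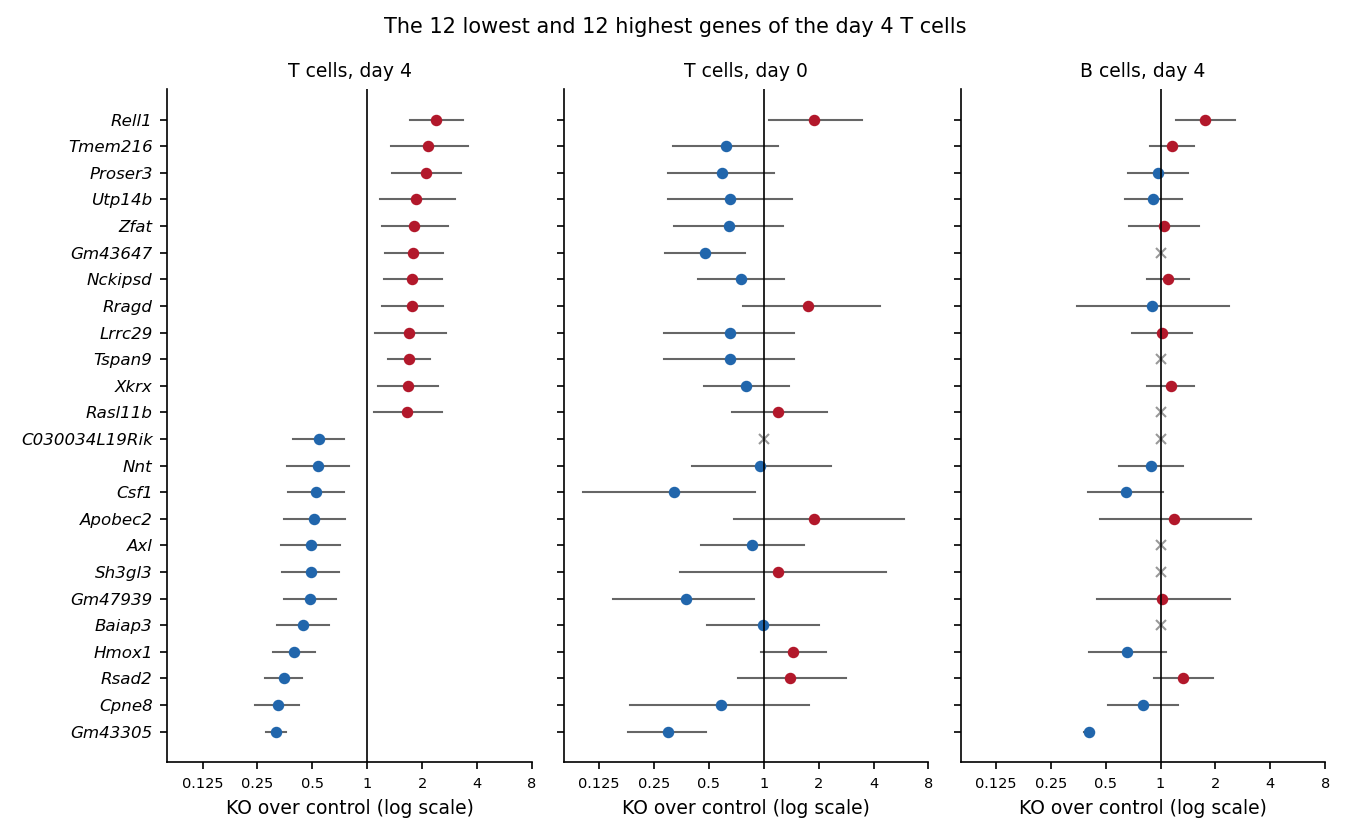
KO over control ratios of the 12 highest and 12 lowest genes of the day 4 T cells are shown with 95% counting intervals on a log axis, in day 4 T cells (which chose the genes), day 0 T cells and day 4 B cells; grey crosses mark fewer than 10 UMIs or no ratio. Gm43305 is below 1 and Rell1 above 1 in all 3 panels.

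With a ratio just under those 12 but a higher level stood Trp53inp1, a p53-induced gene of autophagy and stress responses. It was at 86.6 CPM in KO and 52.9 CPM in control (1.64, 1.5 to 1.79), with a ratio of 1.86 (1.55 to 2.23) at day 0 and 1.29 (1.12 to 1.49) in day 4 B cells. By gate the day 4 ratio ran from 1.60 (1.42 to 1.81) in Cd44- cells to 2.14 in Cxcr5+ Pdcd1+ cells. The p53 target list as a whole did not share it. Of its 11 measured members 4 were higher, 1 of them past 1.3-fold, and 7 lower, with a median of -0.03. Gtse1 was past 1.3-fold lower (0.666, and 0.780 with a top hashtag at least 10 times the next). Bax, the most abundant, had a ratio of 0.997 (0.940 to 1.06). By gate, 5 of 7 members were higher in Foxp3+ cells (median 0.17), 1 of 4 in Cxcr5+ Pdcd1+, 4 of 9 in Cd44+ and 5 of 10 in Cd44- cells.

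Day 4 and day 0 were set side by side over the 7516 genes tested at both, from separate pools of cells. Of 56 genes at least 1.3-fold higher at day 4, 11 were also higher at day 0, or 19.6% of the day 4 and 3.82% of the 288 day 0 genes. They were Afap1, Arl2, Arrdc3, Dapk1, Fastkd1, Gm10130, Mettl27, Qser1, Tfap4, Trav10 and Trp53inp1. Lower at both were 5, or 8.62% of 58 and 1.71% of 293, namely Ccl5, Cdc14b, Cpt1a, Rbms2 and Xcl1. Beside the 19.6% and 8.62%, 3.83% of all 7517 genes tested at day 0 were at least 1.3-fold higher there and 3.91% lower. With day 4 B cells added as a further comparison, where 3.27% of 9669 genes were at least 1.3-fold higher and 3.67% lower (1.0% and 1.84% at 1.5-fold), 7228 genes were tested in all 3, and only Cpt1a was past 1.3-fold in 1 direction throughout. Cpt1a, which admits long-chain fatty acids to mitochondrial oxidation, was at 12.9 CPM in KO and 23 CPM in control T cells (0.561, 0.476 to 0.661), at a ratio of 0.659 (0.505 to 0.860) at day 0 and 0.499 (0.426 to 0.584) in B cells. Gm43305 was not among the 7516, being under 100 UMIs at day 0.

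Type I interferon response genes did not move as a group at day 4, with 12 of 25 higher, 13 lower and a median of -0.01. However, 4 were past 1.3-fold lower, against 3.36% of all genes tested. Rsad2 was at 5.23 CPM in KO and 15.0 CPM in control. Ifit3b and Ifit3, which bind foreign RNA, had ratios of 0.626 (0.489 to 0.803) and 0.726 (0.618 to 0.854), and the exonuclease gene Isg20 was at 35.8 and 50.2 CPM (0.713, 0.643 to 0.791). Ifi206, a nucleic acid sensor family member, was the highest at 92.8 and 73.2 CPM (1.27, 1.17 to 1.37). At day 0, 21 of 22 members were higher in KO and the median was 0.19. Within Cxcr5+ Pdcd1+ cells 14 of 17 were higher, with a median of 0.28, and in Cd44- cells 15 of 25 were lower, with a median of -0.05.

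Promoters of the lowest and the highest member are shown for these opposite values, chosen after they were seen, from RefSeq (GRCm38.p6), each 250 bases before to 50 after the start and read along the gene's strand. Capitals mark a match, on either strand, of GAAA, any 2 bases and GAAA again, the core of the interferon-stimulated response element.
Rsad2, chr12:26456403-26456702, minus strand: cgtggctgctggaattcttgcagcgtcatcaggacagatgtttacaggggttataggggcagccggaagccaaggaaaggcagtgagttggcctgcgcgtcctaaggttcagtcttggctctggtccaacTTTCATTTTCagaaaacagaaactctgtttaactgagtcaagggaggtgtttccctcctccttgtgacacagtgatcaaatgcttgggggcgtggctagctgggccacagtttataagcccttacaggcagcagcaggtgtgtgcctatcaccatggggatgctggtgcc
Ifi206, chr1:173491269-173491568, minus strand: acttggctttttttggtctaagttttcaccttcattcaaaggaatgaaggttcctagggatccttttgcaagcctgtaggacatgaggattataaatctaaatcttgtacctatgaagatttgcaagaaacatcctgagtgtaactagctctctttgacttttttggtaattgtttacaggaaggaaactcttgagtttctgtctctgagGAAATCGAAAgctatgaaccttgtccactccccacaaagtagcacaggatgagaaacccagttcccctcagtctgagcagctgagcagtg
Both promoters hold 1 match, so the motif did not part the lowest member from the highest. Of the 25 members 20 were found in the table, and 12 of those held the motif, against 1131 of 32851 promoters of the same length (3.44%). The 12 had a median log2 ratio of -0.12 and the 8 without it 0.07.

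T cell receptor variable genes, which follow the clones present, were spread to both sides. Of 45 tested TRAV genes 11 were at least 1.3-fold higher in KO and 9 lower, from 0.366 (Trav6d-5) to 2.08 (Trav8d-2). Of 21 TRBV genes 1 was that far higher and 2 lower. The shares over all genes tested were 2.15% and 3.36%. Summed over each family the levels were close, at 394 CPM in KO and 399 CPM in control for TRAV and 1154 and 1172 CPM for TRBV. Several TRAV genes are near-identical copies, whose reads the counting could have divided.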

How the data were processed

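Spleen B cells and CD4+ T cells were loaded as 2 libraries of 10x Genomics 5′ single-cell RNA-seq with hashtag antibodies, per the labels' protocols. The deposited matrices hold UMI counts for 32285 genes and 4 hashtags per barcode, and the submitters' processing notes name Cell Ranger 5.0.0 and mm10. No source used here names the annotation release. Gene positions came from GENCODE vM21 on mm10, which matched 32158 gene identifiers (99.6%).

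Of 9307 T library barcodes, 9196 passed the gene and mitochondrial filters, 8188 had 1 hashtag and 7713 were T cells by Cd3e and Cd79a; 438 had no Cd3e UMI and 37 had both. Cells with more than 1 hashtag were left out as doublets, and no doublet caller was run on the rest. Counts were summed per pool. Intervals (conditional binomial for ratios, Poisson for levels, exact binomial for shares, 95%) cover counting error only. Genes needed 100 UMIs over both pools. Gates were UMI rules, applied in the order Foxp3, Cxcr5 with Pdcd1, then Cd44 present or absent, and are not cell types. The division by Cd44 alone was set after seeing the data, in place of other rules, and some genes and the results that need them are not reported here. Thinning to 1500 UMIs left out 10 KO and 8 control cells at day 4. The summing and intervals were tested on simulated data (Python 3.11.15, numpy 2.4.6, scipy 1.17.1, pandas 2.3.3). The simulated sums were Poisson counts, which hold counting error only, so they cannot show how the intervals fare when UMIs gather in few cells.

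Named were Il2rb, Il2ra and Il2rg, the 12 highest and 12 lowest genes of the ranking, up to 3 members in each direction past 1.3-fold and the most abundant one of each list, 5 at each end of a gate past 1.5-fold, up to 5 led by 1 cell, and markers. Other genes were named after their values were seen. Members, lists and rules were chosen with earlier results of these data known. Alternatives covered scaling, UMI minimum, hashtag, mitochondrial and gene filters, the T cell gate, cell weighting, the deepest cells and the gate mix.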

Additional observations from a re-analysis of the deposited data

Results flagged for a closer look

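For 12 named genes the KO over control ratio lay past 1.3-fold on opposite sides of 1 at day 4 and at day 0, with both counting intervals clear of 1. Each day is 1 pool per side, and the difference between the days was not tested. Follicular helper genes were among them. Sostdc1 was at 0.457 on day 4 and 9.75 (1.46 to 414) on day 0, from 13 KO UMIs and 1 control UMI. Those 13 UMIs lay in only 3 KO cells, with 7 of them in 1 cell. Angptl2 was at 0.558 and 8.0 (2.50 to 40.8), from 32 and 3 UMIs. Isg20, an interferon-induced exonuclease, was at 0.713 and 1.52 (1.14 to 2.04), and Lgals3 at 0.594 and 1.94 (1.23 to 3.15). Rrm2, needed for DNA synthesis, was at 0.671 and 4.31 (2.02 to 10.6), from 46 and 8 UMIs at day 0, and without the deepest 1% of cells its day 4 ratio was 0.819, no longer past 1.3-fold. Lgals3 was then at 0.895. Gm43647 was at 1.78 and 0.477 (0.286 to 0.784). Gzmk, the granzyme K gene, was at 0.539 and 9.75 (1.46 to 414), with 20.8% and 20.7% of its day 4 UMIs in 1 cell.

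The other 5 genes are ones that T cells should not transcribe, and single cells held at least 72.7% of their UMIs in each pool at day 4. Lyz2 was at 0.569 on day 4 and 10.5 on day 0. Hbb-bs was at 0.22 and 352, Hbb-bt at 0.120 and 212, Hba-a1 at 0.140 and 700, and Hba-a2 at 0.161 and 256. In the KO day 0 pool 1 cell held 7406 of 7438 hemoglobin UMIs, and the control day 0 pool had 17.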

How the results depend on the processing

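Counts of genes moved by over 1.5 times only with the UMI minimum. With 20 in place of 100 UMIs, 365 genes were at least 1.5-fold higher in KO and 504 lower, and 717 and 979 passed 1.3-fold. With 300 UMIs these counts were 12, 31, 63 and 105. By construction, the minimum sets how many low genes, with wide counting intervals, are tested. The 36 counts under the other alternatives stayed within 1.5 times. Under alternatives 29 gate share ratios stayed within their counting intervals and 1 did not: Cd44- cells thinned to 1500 UMIs, at 1.02. List medians moved by no more than the members' median interval arm in 305 instances and by more in 3: the effector and memory list at -0.05 with the gate mix of the control pool and -0.28 with cells weighted equally, and the ribosomal protein list at -0.03 with the gate mix, whose gates were set after seeing the data. Gene ratios stayed within their intervals in 814 instances, left them in 67 and, among genes past 1.3-fold, changed side in 1, Hbb-bt at 1.12 without cells with 10 or more hemoglobin UMIs, an alternative added after seeing the data. Il2ra, under 1.3-fold, went from 0.882 to 1.01 without the deepest 1% of cells and 1.02 with cells weighted equally. Over 9 alternatives Gm43305 ran from 0.302 to 0.339, Rell1 from 2.23 to 2.61, Trp53inp1 from 1.62 to 1.68 and Lag3 from 0.437 to 0.606. No paired analysis was possible because each side is 1 pool. The number of cells limits the Cxcr5+ Pdcd1+ gate, at 70 and 56, and the number of UMIs limits Il2rb in B cells, at 4 and 11.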
